A study of Homo sapiens with 6 samples.

Results

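H9 is a human embryonic stem cell line. Its clones that carried either of 2 mutant H2A.X transgenes were taken as 1 side and set against clones that carried eGFP alone, to describe what both transgenes had in common whatever the substitution. The comparison used all 6 arrays of the series, 4 on the H2A.X side and 2 on the control side, and 14884 genes, each read from 1 array row. All groups started from H9 cells transduced with the lentiviral vector pHIV, in which the EF1α promoter drives the insert and an IRES drives eGFP. Cells positive both for GFP and for a surface antigen typical of pluripotency were sorted, and single cells were plated on mouse embryonic fibroblast feeders. Single colonies were then grown in feeder-conditioned medium with 8 ng/ml bFGF. The CTRL group carried eGFP alone, gamma_ON carried H2A.X with S139E, and gamma_OFF carried H2A.X with T136A and S139A, with 2 arrays in each group.

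H2A.X is a variant of histone H2A found throughout chromatin. Kinases of the DNA damage response phosphorylate a serine near its carboxyl end beside DNA double-strand breaks, and that form, γH2A.X, recruits signalling and repair proteins. Glutamate at this serine mimics the phosphorylated form, and alanine cannot be phosphorylated. In pluripotent cells γH2A.X is also found in unstressed cultures. The p53 and heat shock pathways respond to stress, and the YAP pathway to attachment and shape.

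No group carried a transgene of unmodified H2A.X, and no untransduced cells were measured. The labels name no removal of the cells' own H2AX gene. A feature of both H2A.X vectors and a feature of the CTRL clones therefore cannot be told apart, nor can the presence of a transgenic histone and its substitutions. Whether the 2 replicates of a group were different clones or cultures of 1 clone is not in the labels. If they were 1 clone, the clone and the vector cannot be told apart either, and the p-values measure only how far these samples spread, possibly for technical reasons. H2AX had no named row, so the transgene itself was not analysed here. Of 8 markers of undifferentiated cells, 7 were measured, at log2 levels between 6.26 and 12.23 on the 6 arrays, and 0 of them were called in the comparison. Per-array medians over the named genes lay between 7.09 and 7.14. The SD over genes was lowest on gamma_OFF replicate 2, at 1.64, against 1.70 to 1.81 on the other 5 arrays. Values throughout are deposited log2 expression levels, so a difference of 1 is a 2-fold change.

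The pooled fit (limma, 4 arrays against 2, Benjamini-Hochberg adjusted p under 0.05) called 23 of 14884 genes, or 0.155%, all 23 lower on the H2A.X side and 0 higher. At an unadjusted p under 0.05 there were 1571 genes, 682 higher and 889 lower. In all 23 called genes the 4 H2A.X arrays lay below both CTRL arrays, as they did in 12.1% of all genes. This largely follows from the call itself and is not separate support, here and for single genes below. Of the 23, 17 changed at least 2-fold. The direct comparison of gamma_ON with gamma_OFF called 892 genes (5.99%), and 0 of the 23 were among them. Because the pooled fit counts a difference between the vectors as spread, this was largely set by the selection and is not separate support. The largest difference between the vectors among the 23 was 0.40, with a lowest adjusted p of 0.0669, both for N4BP2L2-IT2. The widest 95% interval of these differences, that of MIR19B2, reached 0.51 either side of the estimate. Others were narrower, such as -0.29 to 0.28 for IRS4. The interval of N4BP2L2-IT2, 0.14 to 0.66, left out 0 before adjustment over genes. Differences between the vectors within such intervals could have gone unseen.

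How the spread was modelled set the count. The pooled fit counts any difference between the vectors as spread within a group. A 3-group fit that kept the vectors apart and tested the mean of both against CTRL called 449 genes (3.02%), 132 higher (0.887%) and 317 lower (2.13%). These held all 23 genes of the pooled fit. Of the 449, 114 were also called between the vectors and 335 were not, 83 higher and 252 lower. After rescaling the arrays to a common SD the pooled fit called 3 higher and 24 lower genes, and after quantile normalization 3 higher and 21 lower.

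Single arrays also moved the count. Without CTRL replicate 1, 3 of the 23 genes remained among 3 called. Without CTRL replicate 2 only MRPL22 was called. Without gamma_ON replicate 1, 13 remained among 16, and without gamma_ON replicate 2 or gamma_OFF replicate 1, 2 remained among 2. Without gamma_OFF replicate 2, all 23 remained among 47, of which 7 were higher. The 3-group contrast kept 22 of the 23 without CTRL replicate 1, 10 without CTRL replicate 2, and all 23 without any of the other 4 arrays. Its own count was 107, 27, 143, 115, 1314 and 458 without CTRL replicates 1 and 2, gamma_ON replicates 1 and 2 and gamma_OFF replicates 1 and 2.

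**Figure D1:**
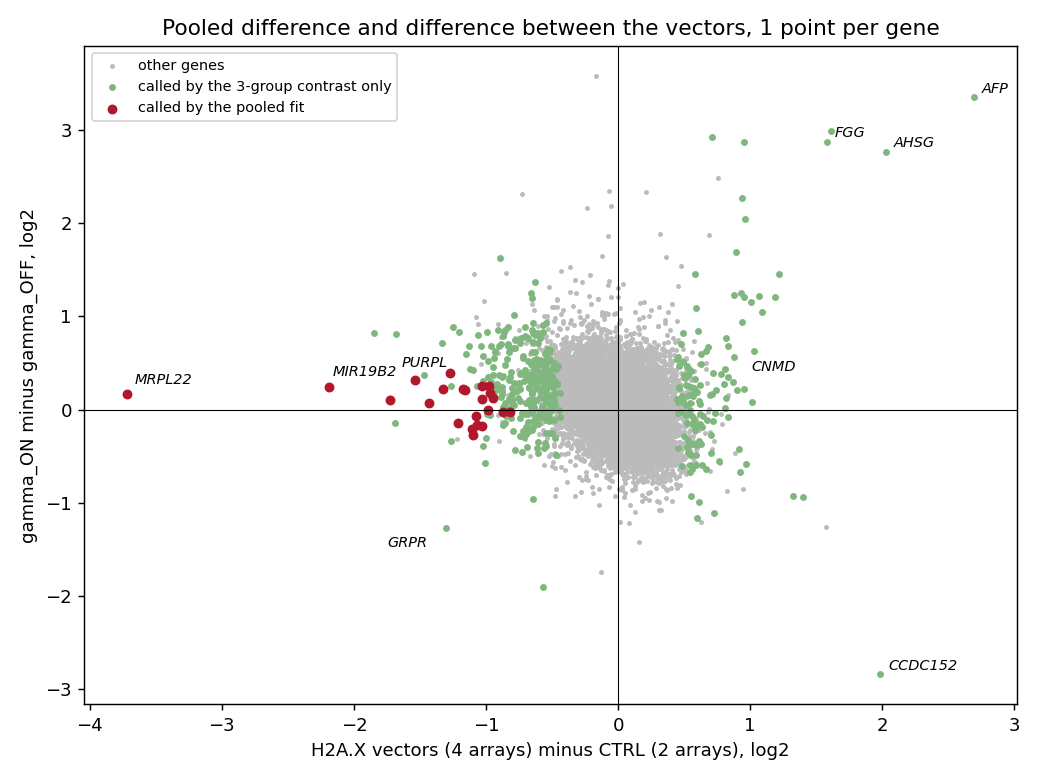
Each point is 1 of 14884 genes, with the difference between the 4 H2A.X arrays and the 2 CTRL arrays on the horizontal axis and the difference between gamma_ON and gamma_OFF on the vertical axis, both in log2 units. The 23 genes called by the pooled fit (red) lie left of 0 and within 0.40 of the horizontal line, whereas genes such as AFP (2.70 across, 3.35 up) differ between the vectors. The pooled fit counts such a difference as spread, so closeness to the line is partly how the 23 were selected.

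MRPL22, which encodes a protein of the large subunit of the mitochondrial ribosome, had the largest fall among the named genes. A row with no gene name fell further. Its level was 10.14 and 10.57 in CTRL, 6.78 and 6.67 in gamma_ON, and 6.64 and 6.47 in gamma_OFF. The 4 H2A.X arrays lay close together and far below both controls. The means were 10.36 ± 0.30 (SD, n = 2) and 6.64 ± 0.13 (SD, n = 4), a difference of -3.72 (SE 0.15, limma adjusted p = 5.48e-05), or 13.2-fold. In gamma_ON the difference from CTRL was -3.63 and in gamma_OFF -3.80. These 2 differences share their CTRL arrays. As the cells were measured in bulk, fewer cells with a transcript and less transcript per cell cannot be told apart, here and below. MRPL22 passed in all 6 fits that left out 1 array, with differences of -3.93 to -3.50.

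The other proteins of the mitochondrial ribosome did not move with MRPL22. Of 74 measured genes for the mitochondrial ribosome, MRPL22 alone was called by either fit, and the other 73 lay between -0.40 for DAP3 and 0.35 for MRPL1, with a median of 0.06 beside 0.02 over all genes. Its chromosome neighbours were also examined, using gene order in RefSeq assembly GRCh38.p14. The 3 nearest measured genes on each side differed by -0.35 to 0.94, with 0 called by the pooled fit. The highest was HAVCR1, which was at 6.90 and 6.97 in gamma_ON, 4.90 and 4.43 in gamma_OFF and 4.99 and 4.73 in CTRL. HAVCR1 thus stood high in gamma_ON alone, and the 3-group contrast called it (adjusted p = 0.0133), except without either CTRL or either gamma_ON array.

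UBAP2L encodes an RNA-binding protein of stress granules. Its level was 12.86 and 12.95 in CTRL, 11.71 and 11.66 in gamma_ON, and 11.61 and 11.33 in gamma_OFF. All 4 H2A.X arrays lay more than 1 unit below both controls, and the difference was -1.33 (SE 0.14, limma adjusted p = 0.0252). The 3 nearest measured genes on each side of UBAP2L differed by -0.19 to 0.24, with 0 called by either fit.

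GDF15 and PURPL were the called members of the p53 target list. The transcription factor p53 is stabilised after DNA damage and other stress and switches on genes of arrest, repair and death. GDF15, a secreted cytokine of the TGF-beta family that p53 and the integrated stress response induce, was at 9.19 and 9.51 in CTRL, 7.94 and 7.96 in gamma_ON, and 7.68 and 8.07 in gamma_OFF. The 2 groups did not overlap, and the difference was -1.43 (SE 0.15, limma adjusted p = 0.0252). PURPL, a p53-induced long noncoding RNA, was at 9.62 and 9.88 in CTRL, 8.37 and 8.37 in gamma_ON, and 8.31 and 7.80 in gamma_OFF. Gamma_OFF replicate 2 stood below the other 3 H2A.X arrays, which were nearly equal. PURPL fell by 1.54 (SE 0.18, adjusted p = 0.0338).

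The rest of the p53 list held further 3-group calls, some of which differed between the vectors. Of 16 measured targets, 2 were lower and 0 higher by the pooled fit, and 6 were lower and 0 higher by the 3-group contrast, against 2.13% lower over all genes. The median difference was -0.44, beside 0.02 over all genes, and 10 of 16 had H2A.X arrays all below CTRL, against 12.1% of all genes. The list's median was -0.18 in gamma_ON and -0.57 in gamma_OFF. EDA2R, a receptor of the TNF family, was at 9.05 and 9.11 in CTRL, 8.55 and 8.46 in gamma_ON, and 7.75 and 7.59 in gamma_OFF. Both vectors lay below CTRL, with gamma_OFF lower than gamma_ON by 0.84 (adjusted p = 0.0103). TP53INP1, which promotes p53 activity, differed by -0.15 in gamma_ON and -0.99 in gamma_OFF, and SESN1, an inhibitor of growth signalling, by -0.25 and -0.78. PLK2, a kinase of the centriole cycle, differed by -0.41 and -0.91. Among 3-group calls, EDA2R was lost without CTRL replicate 2 (adjusted p = 0.0569), and TP53INP1, PLK2 and SESN1 were each lost without either CTRL array and without either gamma_ON array. SESN1 was also lost without gamma_OFF replicate 2 (adjusted p = 0.0558).

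Genes of double-strand break signalling and repair, where γH2A.X acts, were not called. Of 19 measured members, 0 passed by either fit. The median was 0.04, and the members lay between -0.23 and 0.42. PAXIP1, a repair adaptor with BRCT domains, had the lowest p of the list. It was at 8.50 and 8.49 in CTRL, 9.14 and 8.94 in gamma_ON and 8.75 and 8.83 in gamma_OFF, a difference of 0.42 (SE 0.14, adjusted p = 0.347).

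CCN2, CAVIN1, ICAM1 and CADM4 were also called lower. CCN2, a secreted matricellular protein and a standard target of YAP and TEAD, was at 10.90 and 11.01 in CTRL, 9.94 and 9.73 in gamma_ON and 10.05 and 9.98 in gamma_OFF. The H2A.X arrays spanned less than the gap to CTRL, and the difference was -1.03 (SE 0.13, limma adjusted p = 0.0338), with -0.91 on the gene's other row. Its adjusted p was 0.0701 with the mean of both rows, 0.0872 after rescaling to a common SD and 0.0622 after quantile normalization, so the call was lost under each. CAVIN1, a coat protein of caveolae, was at 8.45 and 8.59 in CTRL, 7.68 and 7.59 in gamma_ON and 7.62 and 7.70 in gamma_OFF. Its difference of -0.87 (SE 0.11, adjusted p = 0.0394) was nearly the same in gamma_ON (-0.88) and gamma_OFF (-0.86). ICAM1, a ligand of leukocyte integrins, was at 7.66 and 7.59 in CTRL, 6.76 and 6.54 in gamma_ON and 6.47 and 6.61 in gamma_OFF, and fell by 1.03 (SE 0.13, adjusted p = 0.0338). CADM4, an adhesion protein of the immunoglobulin family, fell by 0.82 (SE 0.11, adjusted p = 0.0477), with an adjusted p of 0.0582 after rescaling and 0.0622 after quantile normalization.

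YAP and TEAD switch on CCN2 and other genes when cells spread on a stiff surface, and the Hippo kinases hold YAP out of the nucleus. Of 12 measured YAP and TEAD targets, 1 was lower by the pooled fit and 5 by the 3-group contrast, with 0 higher, against 0.155% and 2.13% of all genes. In 5 of 12 all H2A.X arrays lay below CTRL, against 12.1%. The median was -0.33, with -0.10 in gamma_ON and -0.58 in gamma_OFF. ANKRD1, a nuclear ankyrin-repeat protein, was at 8.71 and 8.34 in CTRL, 7.87 and 7.78 in gamma_ON and 7.19 and 7.10 in gamma_OFF. The 3 groups were stepped without overlap, and gamma_ON exceeded gamma_OFF by 0.68 (adjusted p = 0.0391). The pooled difference of ANKRD1 was -1.04 (SE 0.24, adjusted p = 0.192), whereas the 3-group contrast called it on all 6 arrays (adjusted p = 0.00474) and in each of the 6 fits without 1 array. AJUBA, a LIM protein that restrains Hippo kinases, differed by -0.71, the transmembrane protein gene CRIM1 by -0.63 and the receptor kinase gene AXL by -0.52. Each of these 3 lost its 3-group call without either CTRL array and without gamma_ON replicate 2, and AXL and CRIM1 also without gamma_ON replicate 1.

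The promoters of CCN2 and ANKRD1 are shown because both targets were called lower by the 3-group contrast and because TEAD proteins bind the letters GGAATG. Their falls differed in pattern. CCN2 differed by -1.12 in gamma_ON and -0.94 in gamma_OFF, and ANKRD1 by -0.70 and -1.38. The 250 bases before each start site are from RefSeq (GRCh38.p14), with matches to GGAATG or its reverse complement in capitals. The CCN2 window, at chr6:131951373-131951622 on the minus strand, held 3 matches, and the ANKRD1 window, at chr10:90921088-90921337 on the minus strand, held 2.
CCN2: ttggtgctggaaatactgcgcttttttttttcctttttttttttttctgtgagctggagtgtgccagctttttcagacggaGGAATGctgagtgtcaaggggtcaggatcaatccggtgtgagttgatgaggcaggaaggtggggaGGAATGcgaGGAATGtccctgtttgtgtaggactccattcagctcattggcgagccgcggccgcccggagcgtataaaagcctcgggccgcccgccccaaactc
ANKRD1: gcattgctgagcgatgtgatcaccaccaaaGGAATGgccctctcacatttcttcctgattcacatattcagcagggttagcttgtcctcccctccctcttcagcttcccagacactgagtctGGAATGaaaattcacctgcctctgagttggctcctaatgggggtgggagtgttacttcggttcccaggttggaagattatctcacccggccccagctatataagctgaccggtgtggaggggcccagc
Of 35116 promoter windows of this length, 11.9% held the motif on either strand, and among measured genes 1429 of 10749 (13.3%) had it in at least 1 window. Of the 10 YAP and TEAD targets with a window, 5 had it. These genes were listed as targets of TEAD, so that share says nothing about why they fell. A match is a description of the letters, and binding was not measured here.

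Among other called genes, SAT1, the enzyme that acetylates polyamines for their breakdown, was at 7.95 and 8.21 in CTRL, 6.99 and 6.94 in gamma_ON and 6.98 and 7.08 in gamma_OFF. The 4 H2A.X arrays spanned a narrow range below both controls, and SAT1 fell by 1.08 (SE 0.12, limma adjusted p = 0.0338). IRS4, a docking protein of insulin and IGF receptors, was at 7.45 and 7.67 in CTRL, 6.59 and 6.56 in gamma_ON and 6.64 and 6.52 in gamma_OFF. Its difference was -0.98 in each vector (pooled SE 0.12, adjusted p = 0.0338). STMN2, a neuronal protein that destabilises microtubules, was at 8.47 and 8.58 in CTRL, 7.73 and 7.55 in gamma_ON and 7.50 and 7.43 in gamma_OFF, and fell by 0.97 (SE 0.13, adjusted p = 0.0401). ULK4, a pseudokinase, fell by 0.98 (SE 0.14, adjusted p = 0.0498), and FKSG29 fell by 0.94 (SE 0.13, adjusted p = 0.0477). The noncoding genes N4BP2L2-IT2 and CCDC18-AS1 fell by 1.27 and 1.03. They lie within or against other genes, and without strand information their signal cannot be assigned to them with certainty. After quantile normalization the adjusted p was 0.0622 for N4BP2L2-IT2 and 0.0557 for CCDC18-AS1 and FKSG29, and with robust fitting it was 0.0510 for ULK4, so these calls were lost.

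**Figure D2:**
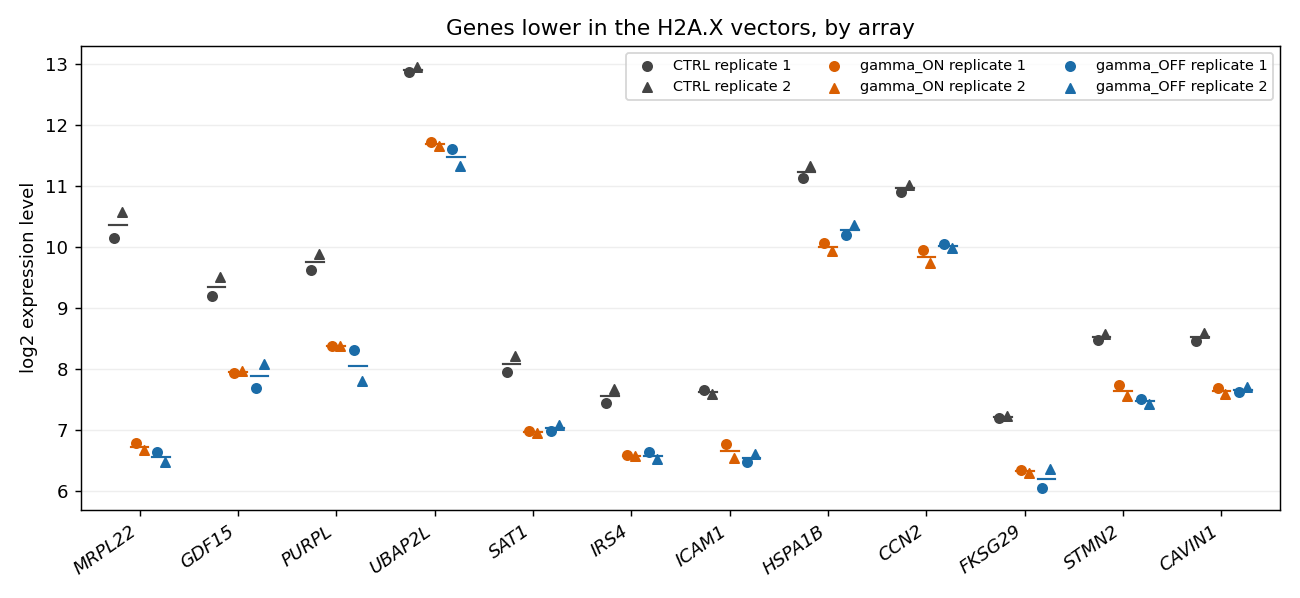
The log2 expression level of 12 genes called lower by the pooled fit is plotted for each array, with CTRL in grey, gamma_ON in orange, gamma_OFF in blue, circles for replicate 1, triangles for replicate 2 and a short line at each group's mean. In all 12 genes the orange and blue points lie together below the grey ones, and the widest gap is that of MRPL22 (10.36 against 6.64).

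HSPA1B encodes an inducible HSP70 chaperone that refolds proteins after heat and other stress. It was at 11.13 and 11.32 in CTRL, 10.06 and 9.92 in gamma_ON and 10.18 and 10.35 in gamma_OFF. The groups did not overlap, and the difference was -1.10 (SE 0.15, limma adjusted p = 0.0421). The call was lost after rescaling to a common SD (adjusted p = 0.126) and after quantile normalization (adjusted p = 0.102). The neighbouring HSPA1A is near-identical, so the separate values are uncertain. HSPA1A, at 10.79 and 11.07 in CTRL and between 9.75 and 10.16 on the 4 H2A.X arrays, lay just outside the threshold (adjusted p = 0.0538). The 5 rows of HSPA1B differed by -1.10 to -1.32. Of 9 measured heat shock genes, 1 was lower by the pooled fit and 3 by the 3-group contrast, against 0.155% and 2.13% of all genes, with 0 higher. The third was HSPA4L, a cochaperone of the HSP110 family, at -0.58. HSPA4L was lost without either CTRL array and without either gamma_ON array, and HSPA1A and HSPA1B without CTRL replicate 2. The median of the list was -0.06.

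The promoter of HSPA1B is shown because heat shock factors bind inverted GAA blocks. The 250 bases before its start, at chr6:31827488-31827737 on the plus strand (RefSeq, GRCh38.p14), hold 1 match to GAANNTTC, in capitals.
HSPA1B: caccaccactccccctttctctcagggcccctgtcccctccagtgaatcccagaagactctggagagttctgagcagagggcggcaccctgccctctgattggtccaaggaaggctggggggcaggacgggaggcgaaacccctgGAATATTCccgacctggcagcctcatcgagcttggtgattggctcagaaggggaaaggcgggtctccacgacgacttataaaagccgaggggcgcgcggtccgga
This motif reads the same on both strands. It was found in 5.78% of the 35116 windows, in 6.14% of measured genes and in 5 of the 8 heat shock genes with a window. The match did not follow the calls. Of the other genes called lower, HSPA1A had 1 match and HSPA4L had 0 in any window. Among uncalled genes, HSPB1 had 1, HSPA6 had 2, HSPD1 had 1 in 1 window, and HSPH1 and BAG3 had 0. The share therefore says nothing about why HSPA1B fell, and binding was not measured here.

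Of the 23 called genes, 7 are microRNA hairpin genes. The array rows are named by hairpin gene, so they do not show the mature forms, and they are dim: the 1088 microRNA rows had a median level of 5.15, against 7.12 over all genes. Over all 1088 the median difference was 0.06, and the 3-group contrast called 54 (4.96%, against 3.02% of all genes), 11 higher and 43 lower. The 7 called by the pooled fit are 0.643%, against 0.155%. MIR19B2 and MIR20B belong to the miR-106a-363 cluster on the X chromosome, a relative of the cluster hosted by MIR17HG, and are expressed in pluripotent cells. Because the called and uncalled hairpins of this cluster share seeds, their mature sequences (RefSeq, GRCh38.p14) are shown with bases 2 to 8, the seed that pairs with target transcripts, in capitals.
hsa-miR-106a-5p: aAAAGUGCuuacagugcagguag
hsa-miR-20b-5p: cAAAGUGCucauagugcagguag
hsa-miR-18b-5p: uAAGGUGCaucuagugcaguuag
hsa-miR-19b-3p: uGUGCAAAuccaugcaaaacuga
hsa-miR-92a-3p: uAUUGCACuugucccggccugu
hsa-miR-363-3p: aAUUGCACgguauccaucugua
The seed AAAGUGC is shared by hsa-miR-106a-5p and hsa-miR-20b-5p, and AUUGCAC by hsa-miR-92a-3p and hsa-miR-363-3p. The mature hsa-miR-19b-3p is made from 2 loci, MIR19B1 and MIR19B2, and its copy in this cluster lies at chrX:134169683-134169705 on the minus strand.

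MIR19B2 was at 4.98 and 5.70 in CTRL, 3.33 and 3.21 in gamma_ON and 3.24 and 2.82 in gamma_OFF. All H2A.X arrays lay more than 1.5 units below CTRL, and the difference was -2.19 (SE 0.22, limma adjusted p = 0.0246). MIR20B was at 4.88 and 5.40 in CTRL, 3.79 and 3.94 in gamma_ON and 4.10 and 3.91 in gamma_OFF, a difference of -1.21 (SE 0.17, adjusted p = 0.0475). MIR18B was at 5.63 and 6.20 in CTRL, 4.78 and 4.50 in gamma_ON and 4.64 and 3.02 in gamma_OFF. Gamma_OFF replicate 2 was far below the other arrays, and the difference of -1.68 (SE 0.45) did not pass the pooled fit (adjusted p = 0.253) but passed the 3-group contrast (adjusted p = 0.0456), a call lost without either CTRL array or either gamma_ON array. The 3 other hairpins were not called by either fit. MIR106A, which shares the seed of MIR20B, differed by -0.88 and MIR363 by -0.65, both with H2A.X arrays below CTRL. MIR92A2 differed by -0.29, with overlapping groups and levels between 1.92 and 2.61. MIR17HG, the host transcript of that related cluster, differed by 0.01 (SE 0.16, adjusted p = 0.993), with the sign turned under both other scalings.

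**Figure D3:**
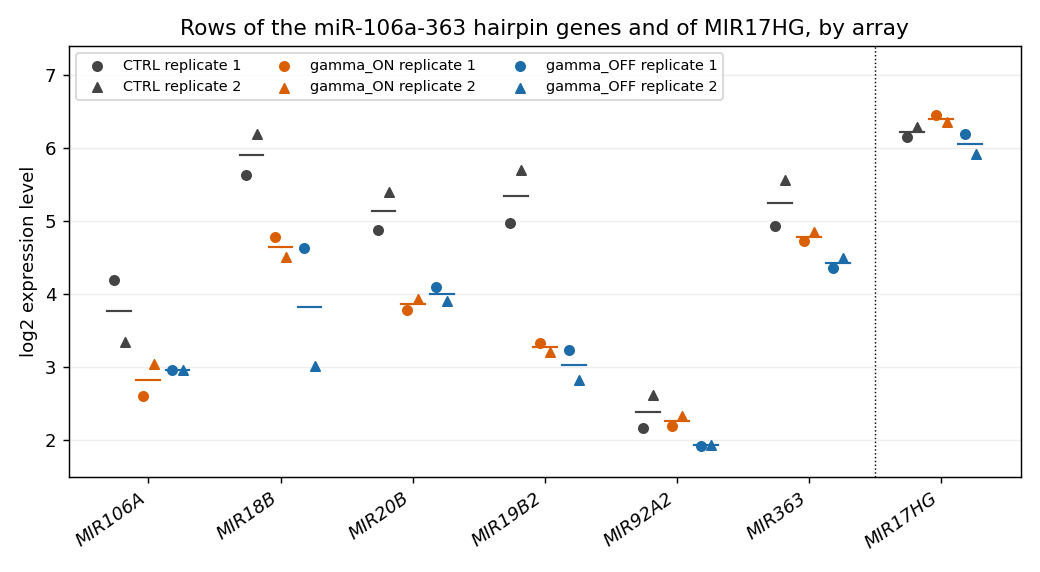
The log2 level of the 6 hairpin genes of the miR-106a-363 cluster and, right of the dotted line, of MIR17HG is plotted for each array, with CTRL in grey, gamma_ON in orange, gamma_OFF in blue, circles for replicate 1, triangles for replicate 2 and a short line at each group's mean. MIR19B2 and MIR20B lie below CTRL on all 4 H2A.X arrays, MIR18B falls to 3.02 on gamma_OFF replicate 2, and MIR17HG overlaps between groups.

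The other 5 called hairpin genes come from separate loci. MIR4712 was at 4.82 and 5.01 in CTRL, 3.29 and 3.18 in gamma_ON and 3.17 and 3.10 in gamma_OFF. It had the second lowest adjusted p of the pooled fit (0.00216), with a difference of -1.73 (SE 0.12). MIR205, which restrains epithelial-mesenchymal transition through ZEB transcripts, was at 8.38 and 8.72 in CTRL, 7.46 and 7.51 in gamma_ON and 7.27 and 7.25 in gamma_OFF. It fell by 1.18 (SE 0.15, adjusted p = 0.0338). Its mature form is shown with the seed in capitals.
hsa-miR-205-5p: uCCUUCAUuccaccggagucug
MIR579, MIR4742 and MIR3662 fell by 1.16, 1.11 and 1.07 (each adjusted p = 0.0338), and each had its 4 H2A.X arrays below both CTRL arrays. The call of MIR579 was lost after quantile normalization (adjusted p = 0.0602).

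No gene was called higher by the pooled fit, and the nearest lay at the threshold. CNMD and LINC01139 each had an adjusted p of 0.05001. CNMD, which encodes chondromodulin, an inhibitor of vessel growth in cartilage, was at 8.80 and 8.74 in CTRL, 9.85 and 9.83 in gamma_ON and 9.75 and 9.49 in gamma_OFF. All 4 H2A.X arrays lay above both controls, with a difference of 0.96 (SE 0.14). TNMD, the tendon paralogue of CNMD, was at 6.31 and 5.97 in CTRL, 6.94 and 6.98 in gamma_ON and 6.92 and 6.96 in gamma_OFF, a difference of 0.81 (SE 0.13, limma adjusted p = 0.0564). The noncoding gene LINC01139 differed by 0.90. FERMT1, the integrin activator kindlin-1, differed by 0.74 (adjusted p = 0.0538) and the myosin motor gene MYO5C by 0.87 (adjusted p = 0.0590). The 3-group contrast called all 5 of these genes higher, but CTRL replicate 2 was needed for each call. Without CTRL replicate 2 the adjusted p was 0.0736 for CNMD, 0.0820 for LINC01139, 0.101 for FERMT1, 0.148 for TNMD and 0.0710 for MYO5C. FERMT1 was also lost without CTRL replicate 1 and TNMD without gamma_ON replicate 2. At an adjusted p under 0.10 the pooled fit called 75 genes (0.504%), 9 higher and 66 lower. These and the next genes were named after their values were seen.

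Several genes just outside the threshold were lower in both vectors, with adjusted p-values between 0.0533 and 0.0540. JUN, a subunit of the AP-1 transcription factor, was at 8.32 and 8.41 in CTRL, 7.57 and 7.38 in gamma_ON and 7.03 and 7.08 in gamma_OFF, a difference of -1.10 (SE 0.17, adjusted p = 0.0538). Both vectors lay below CTRL and gamma_OFF lay below gamma_ON. DCC, a netrin receptor of growing axons, was at 8.37 and 7.83 in CTRL, 6.63 and 6.71 in gamma_ON and 7.04 and 6.96 in gamma_OFF, a difference of -1.27 (SE 0.19, adjusted p = 0.0533). JUN and DCC passed the 3-group contrast on all 6 arrays and without any 1 array. The matrix protein gene THBS1 differed by -0.94, the metallothionein gene MT1X by -0.93, the endothelin gene EDN1 by -0.83 and the tropomyosin gene TPM1 by -0.80. The nuclear noncoding RNA gene MALAT1 differed by -0.88 on its brightest row and by -0.54 and -0.43 on its other 2 rows. These 5 passed the 3-group contrast, and each lost that call without CTRL replicate 2, and THBS1, TPM1 and MALAT1 also without CTRL replicate 1.

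Of the 26 gene lists, 3 others had medians of -0.28 or lower and members called lower. Of 18 measured targets of FGF and ERK, the pathway that bFGF in the medium feeds, the pooled fit called 0 and the 3-group contrast called 4 lower (against 2.13% of all genes) and 0 higher, with a median of -0.28. FOSL1, an AP-1 subunit, was at 7.97 and 8.26 in CTRL, 7.44 and 7.39 in gamma_ON and 7.01 and 7.10 in gamma_OFF, a difference of -0.88 (SE 0.16, pooled adjusted p = 0.104). The feedback inhibitors SPRY4 and SPRY2 differed by -0.59 and -0.63. FLRT3, a membrane protein of FGF signalling, differed by -0.08 in gamma_ON and -1.71 in gamma_OFF, so its difference lay in gamma_OFF. Of 12 mesenchymal genes, 0 were called by the pooled fit and 3 were lower by the 3-group contrast (FN1, VIM and AXL), again against 2.13%, with a median of -0.28. FN1, the matrix protein fibronectin, differed by -0.18 in gamma_ON and -1.11 in gamma_OFF, and the intermediate filament gene VIM by -0.19 and -0.84. Of 13 genes of the unfolded protein and integrated stress responses, 0 were called by the pooled fit and 2 were lower by the 3-group contrast (2.13% of all genes), with a median of -0.35 and 8 members below CTRL on all H2A.X arrays (12.1% of all genes). These 2 were the transcription factor gene ATF3, at -0.54, and the lipoprotein receptor gene VLDLR, at -0.55. Of these called members, SPRY4, SPRY2, FN1, VIM, AXL, ATF3 and VLDLR each lost the 3-group call without either CTRL array or either gamma_ON array, VIM and ATF3 also without gamma_OFF replicate 2, FOSL1 without CTRL replicate 2 and FLRT3 without CTRL replicate 1.

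**Figure D4:**
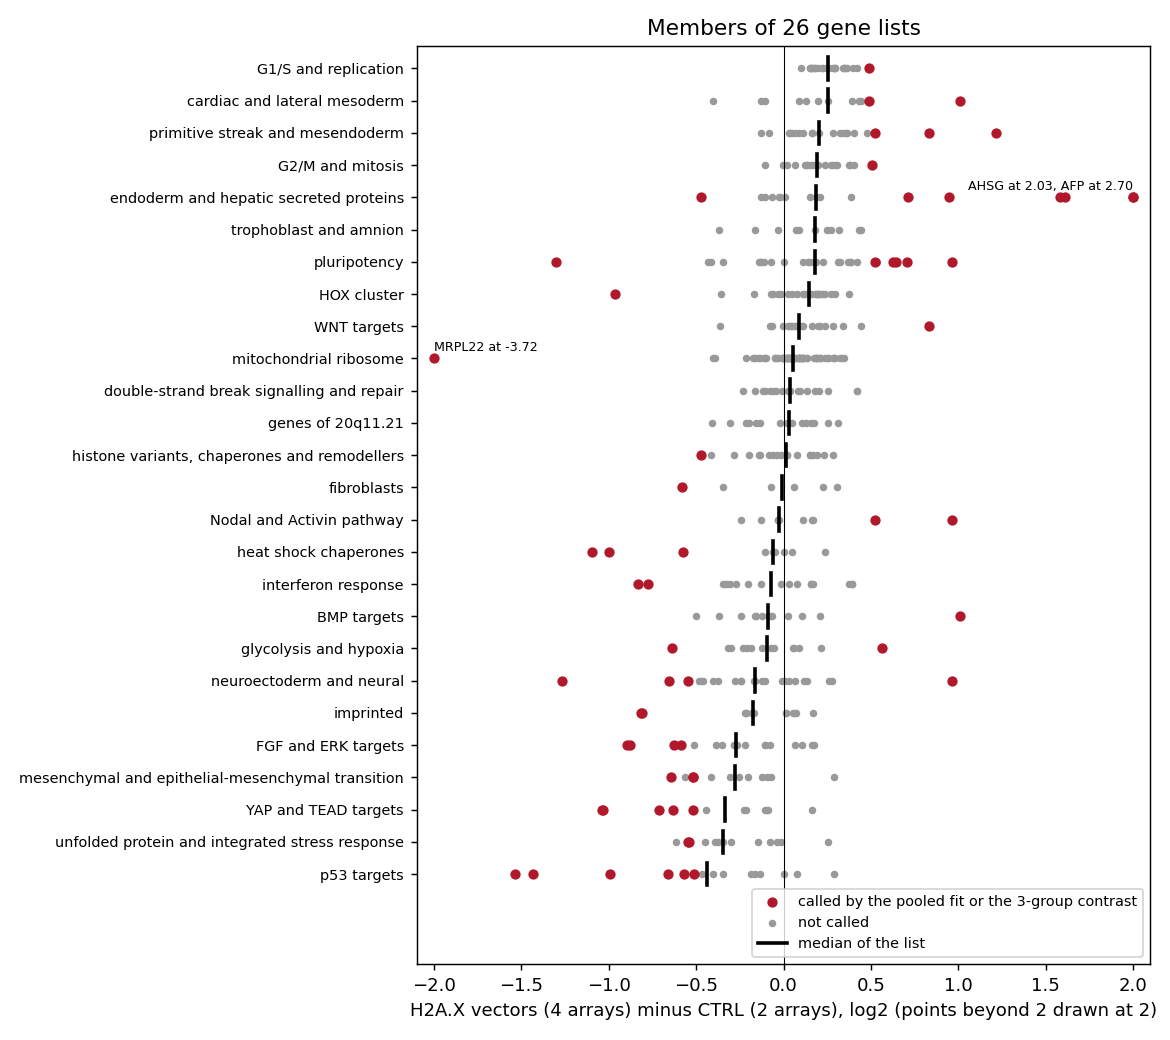
Each row is 1 of 26 gene lists and each point a measured member, placed by its difference between the 4 H2A.X arrays and the 2 CTRL arrays in log2 units, with red points for members called by either fit, a black bar at the list's median and points beyond 2 drawn at 2 with their value. The lowest median is that of the p53 targets (-0.44) and the highest is that of the G1/S genes (0.26), and MRPL22 stands alone among the mitochondrial ribosome genes.

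Cell cycle lists had 1 member each called higher, by the 3-group contrast alone, against 0.887% of all genes. All 25 measured genes of G1/S and replication had positive differences, with a median of 0.26, but the pooled fit called 0 and the 3-group contrast called 1, RRM2. RRM2, a subunit of ribonucleotide reductase, was at 9.16 and 9.02 in CTRL, 9.70 and 9.58 in gamma_ON and 9.43 and 9.61 in gamma_OFF, a difference of 0.49 (SE 0.13, adjusted p = 0.228). Of 20 genes of G2/M and mitosis, 18 had positive differences, with a median of 0.19. The 3-group contrast called 1 of them, the spindle gene HMMR, at 0.51. The list medians were 0.42 in gamma_ON and 0.10 in gamma_OFF for G1/S, and 0.35 and 0.13 for G2/M. All H2A.X arrays lay above CTRL in 10 of 25 and 11 of 20 members, against 11.8% of all genes. The mean level of the G2/M genes on gamma_OFF replicate 2 was 9.62, below both CTRL arrays (9.64 and 9.65), and that of the G1/S genes was 9.20 there, below CTRL replicate 2 (9.22) and above CTRL replicate 1 (9.18). The calls of RRM2 and HMMR were lost without either CTRL array or either gamma_ON array, and that of RRM2 also without gamma_OFF replicate 2.

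POU5F1, SOX2 and NANOG were not called by either fit. POU5F1 was at 7.10 and 7.41 in CTRL, 7.88 and 8.05 in gamma_ON and 7.59 and 7.64 in gamma_OFF, a difference of 0.54 (SE 0.17, pooled adjusted p = 0.316). By the 3-group contrast its adjusted p was 0.05003, at the threshold, and it was called without gamma_OFF replicate 1 (adjusted p = 0.0413). SOX2 differed by 0.22 (SE 0.11, adjusted p = 0.533) and NANOG by 0.37 (SE 0.21, adjusted p = 0.587). POU5F1 and SOX2 lay above CTRL on all 4 H2A.X arrays, and NANOG overlapped. Of 28 measured pluripotency genes the pooled fit called 0, and the 3-group contrast called 5 higher and 1 lower, against 0.887% and 2.13% of all genes. In 15 of the 28 all H2A.X arrays lay above CTRL, against 11.8% of all genes. VRTN, a nuclear protein abundant in pluripotent cells, was at 8.36 and 8.36 in CTRL, 8.97 and 8.97 in gamma_ON and 8.96 and 9.11 in gamma_OFF. Its difference of 0.64 (SE 0.11, adjusted p = 0.0816) was much the same in both vectors. LCK, a Src-family kinase, differed by 0.57 in gamma_ON and 0.84 in gamma_OFF. GDF3 and NODAL, ligands of the TGF-beta family, and the neuropeptide gene GAL differed between the vectors. GDF3 differed by 1.98 in gamma_ON and -0.06 in gamma_OFF, NODAL by 0.76 and 0.29, and GAL by 0.93 and 0.33. The other row of NODAL differed by 0.09 in the pooled comparison. GRPR, the receptor of gastrin-releasing peptide, differed by -1.30 on its brighter row and 0.09 on the dimmer one, and these disagree. All 6 of these 3-group calls were lost without CTRL replicate 2. VRTN, LCK, NODAL and GAL were also lost without CTRL replicate 1, VRTN, LCK and NODAL without gamma_ON replicate 2, VRTN, NODAL and GAL without gamma_ON replicate 1, and GAL without gamma_OFF replicate 2.

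The largest pooled rise was not common to both vectors in size. AFP, which encodes the fetal plasma protein alpha-fetoprotein, was at 6.93 and 6.86 in CTRL, 11.17 and 11.37 in gamma_ON and 8.08 and 7.76 in gamma_OFF. All 4 H2A.X arrays lay above both controls, but by 4.37 in gamma_ON and 1.02 in gamma_OFF. The pooled difference of 2.70 (SE 1.00) did not pass (limma adjusted p = 0.404), whereas the 3-group contrast called it (adjusted p = 2.65e-05), as did the test between the vectors (adjusted p = 9.15e-06). Of 17 measured endoderm and hepatic genes the pooled fit called 0 and the 3-group contrast called 6 higher (0.887% of all genes), all secreted plasma proteins, and 1 lower, the chemokine receptor gene CXCR4, at -0.47. The list median was 0.19, with 0.49 in gamma_ON and -0.06 in gamma_OFF. The endoderm markers SOX17, FOXA2, GATA4 and GATA6 differed by -0.02, 0.01, -0.10 and -0.13 and were not called by either fit. AHSG, or fetuin-A, differed by 3.41 in gamma_ON and 0.65 in gamma_OFF. The fibrinogen chain genes FGG, FGA and FGB differed by 3.02, 3.10 and 2.17 in gamma_ON and by 0.15, 0.12 and -0.75 in gamma_OFF, and the apolipoprotein gene APOB by 2.38 and -0.48. FGB and APOB thus stood on opposite sides of CTRL in the 2 vectors. The 3-group calls of AFP, AHSG, FGG and FGA held without any 1 array. APOB was lost without CTRL replicate 2 or gamma_ON replicate 2, FGB without CTRL replicate 2 or either gamma_ON array, and CXCR4 without each array other than gamma_OFF replicate 1.

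Some genes of early mesoderm were also higher by the 3-group contrast, with larger differences in gamma_ON. Of 21 genes of the primitive streak and mesendoderm, 0 were called by the pooled fit and 3 were higher by the 3-group contrast (0.887% of all genes), with a median of 0.20. MIXL1, a homeobox gene of the streak, differed by 1.94 in gamma_ON and 0.49 in gamma_OFF, and the WNT inhibitor gene DKK4 by 1.18 and 0.49. Other mesoderm markers did not rise in both vectors. EOMES differed by 1.18 in gamma_ON and -0.45 in gamma_OFF, and MESP1 by -0.09 and 0.16. Neither EOMES nor MESP1 was called against CTRL by either fit. Of 13 cardiac and lateral mesoderm genes, 0 were called by the pooled fit and 2 were higher by the 3-group contrast. HAND1 differed by 1.59 in gamma_ON and 0.43 in gamma_OFF, whereas TBX20, another transcription factor of the early heart, differed by 0.54 and 0.44. MIXL1 and HAND1 were lost without CTRL replicate 2, DKK4 and TBX20 without either CTRL or either gamma_ON array, and TBX20 also without gamma_OFF replicate 2.

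Of 24 measured neural genes, the pooled fit called 0. The 3-group contrast called 3 lower (DCC, ZIC1 and NES) and 1 higher (CNTN1), against 2.13% and 0.887% of all genes. The list median was -0.17, with -0.19 in gamma_ON and -0.05 in gamma_OFF. ZIC1, a zinc finger factor of the neural plate, was at 7.19 and 6.95 in CTRL, 6.49 and 6.36 in gamma_ON and 6.45 and 6.35 in gamma_OFF, a difference of -0.66 (SE 0.12, adjusted p = 0.105). The intermediate filament gene NES differed by -0.55, and CNTN1, an adhesion protein of axons, by 0.97. Trophoblast and amnion genes had 0 of 11 called by either fit, with a median of 0.18.

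Of 14 measured imprinted genes, 0 were called by the pooled fit and 2 were lower by the 3-group contrast, against 2.13% of all genes. DLK1, a membrane ligand expressed from the paternal allele, was at 9.35 and 9.35 in CTRL, 8.47 and 8.53 in gamma_ON and 8.48 and 8.68 in gamma_OFF. Its difference was -0.81 (SE 0.12, limma adjusted p = 0.0533), with tight controls and no overlap. KCNQ1OT1, a noncoding RNA antisense to KCNQ1, was at 7.53 and 7.77 in CTRL, 6.83 and 6.84 in gamma_ON and 6.90 and 6.76 in gamma_OFF, a difference of -0.82 (SE 0.12, adjusted p = 0.0538). Without strand information it cannot be told apart from its partner. MEG3, the noncoding gene next to DLK1, differed by 0.06. Of the 3-group calls, KCNQ1OT1 was lost without CTRL replicate 2 and DLK1 without either CTRL array, and ZIC1, NES and CNTN1 above were lost without either CTRL array too, ZIC1 and NES also without either gamma_ON array.

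The remaining lists had few calls. Over all genes the 3-group contrast called 2.13% lower and 0.887% higher. The pooled fit called 0 of 21 genes for histone variants, chaperones and remodellers, and the 3-group contrast called 1, the remodeller gene CHD2, lower at -0.47. Of 27 HOX genes 20 had positive differences, with a median of 0.14. The 3-group contrast called 1 of the 27 lower, HOXA2, at -0.62 in gamma_ON and -1.31 in gamma_OFF. Of 18 interferon response genes it called 2 lower, BST2, which tethers viruses at the membrane, at -0.78, and TRIM22 at -0.84. Of 14 genes of glycolysis and hypoxia it called VEGFA lower, at -0.64, and the hexokinase gene HK2 higher, at 0.56. It called 1 gene higher of 20 WNT targets (DKK4), 1 of 13 BMP targets (HAND1) and 2 of 11 genes of the Nodal pathway (GDF3 and NODAL). These genes were also members of lists above. Positive differences were found in 16 of 20 WNT targets (median 0.09), 4 of 13 BMP targets (median -0.09) and 5 of 11 Nodal genes (median -0.02). The 3-group contrast called 0 of 16 genes of 20q11.21, a region often gained in cultured pluripotent cells, whose median was 0.03. Among 6 genes listed for fibroblasts it called 1 lower, TAGLN, at -0.58, and the 3 measured defining markers of fibroblasts were not called. Each of these calls was lost without CTRL replicate 2 apart from that of HOXA2, which was lost without CTRL replicate 1 or gamma_ON replicate 2. CHD2, VEGFA, HK2, TAGLN, DKK4 and NODAL were also lost without CTRL replicate 1 or either gamma_ON array, BST2 without either gamma_ON array and CHD2 without gamma_OFF replicate 2.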

How the data were processed

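Total RNA from 6 H9 samples was hybridised to arrays, 1 array per sample, and groups were taken from the sample descriptions. Each array row holds a deposited log2 level, made with RMA and Partek 6.6 per the submitters' processing notes. The genome build is not given in the sources used here. Of 53617 rows, 16098 had 1 gene symbol, 0 had several and 37519 were unnamed here. All 16098 gene identifiers matched RefSeq (GRCh38.p14). For the 779 genes with several rows the brightest was used, which left 14884 genes.

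Differences were tested with limma 3.58.1 (lmFit, eBayes) in R 4.3.3, two-sided. The pooled fit had 4 residual and 4.55 prior degrees of freedom, the 3-group fit 3 and 6.05, and p-values were adjusted over all genes. No exact test was run, since 4 arrays against 2 give at best p = 0.133. The number of arrays limits the precision.

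The members, lists and tests were chosen with earlier results of these data known. The rule for named genes takes, in each direction, up to 12 called genes without overlap and with the largest smaller-of-both-vectors difference, leaving out noncoding, uncharacterised and antisense symbols, up to 3 called members of each list, the lowest p of a list with no call, and POU5F1, NANOG, SOX2 and AFP. It gave 12 lower and 0 higher genes. Other genes named were chosen after their values were seen. Replicate numbers were not used as pairs: the correlation of same-numbered samples' deviations from their group means was -0.10, -0.07 and 0.09. Alternatives varied the spread model, threshold, dim-gene filter, row choice, scaling, replicate block and arrays used, and the script was tested on simulated data.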

Additional observations from a re-analysis of the deposited data

Results flagged for a closer look

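Among the named genes, 5 had an array that stood apart among the 4 H2A.X arrays by Dixon's ratio. Chance exceeds the cutoff in about 1 in 20 groups, and these 5 are about that share of the named genes checked. They are therefore no more than chance would give. The 4 arrays also come from both vectors, so they are not replicates of a single group. The gap over the range was 0.894 for PURPL, 0.932 for VRTN, 0.843 for MIR18B and 0.834 for MALAT1, all with gamma_OFF replicate 2 as the far array, and 0.918 for TBX20, with gamma_OFF replicate 1.

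Over all genes, limma's test of gamma_ON against gamma_OFF called 892 (5.99%). Many of the named genes were chosen because a fit called them or after their values were seen. Their share therefore cannot be compared with that 5.99%. In 24 named genes the vectors differed from each other by this test, so their pooled difference is not the same size in both. The adjusted p-values were 7.25e-06 for FGG, 9.15e-06 for AFP, 5.83e-05 for APOB, FGA and FGB alike, and 8.91e-05 for AHSG. They were 0.000287 for GDF3, 0.000287 for HAVCR1 and 0.000549 for FLRT3. They were 0.0041 for MIXL1, 0.00609 for GRPR, 0.00617 for HAND1, 0.0103 for EDA2R, 0.0103 for FN1, 0.0126 for TP53INP1, 0.0249 for SPRY2, 0.028 for TRIM22, 0.0308 for VIM and 0.0391 for ANKRD1. They were 0.0443 for DKK4, 0.045 for GAL, 0.0475 for HOXA2 and SESN1, and 0.0477 for NODAL.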

How the results depend on the processing

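The pooled fit called 23 genes. It called 36 with limma-trend (3 higher) and 1615 with array weights (796 higher and 819 lower). These weights were 5.45 for gamma_ON replicate 2 and 0.186 for gamma_OFF replicate 2. At an adjusted p under 0.10 it called 75 (9 higher). The 3-group contrast called 449 (132 higher). With the replicate number as a block the pooled fit called 3, all lower. Leaving out 1 array gave 1 to 47 calls, and 107, 27, 143, 115, 1314 and 458 by the 3-group contrast, an alternative chosen after seeing the data. The count was between 20 and 27 with robust fitting, without dim genes, with the mean of rows, after rescaling and after quantile normalization. In that order, 0, 2, 2, 3 and 3 of these calls were higher. The dim-gene filter removed some of the 23 before the test, and the 12 that it kept were all still called. After quantile normalization 16 of the 23 remained. With all 53617 rows fitted together, named and unnamed, the pooled fit called 2 named rows, so most of the 23 calls were lost. The comparison of gamma_ON with gamma_OFF called 892 genes, against 1628 with limma-trend, 229 with array weights, 3121 at 0.10, 1495 without dim genes, 443 after rescaling, 469 after quantile normalization, 871 with the replicate block, and 49 to 4061 without 1 array. Of 2191 alternative values of the named genes, 140 lost a call, 437 gained one and 8 reversed direction, all 8 of MIR17HG, which was never called: -0.0049 after rescaling, -0.0489 after quantile normalization, -0.0641 to 0.112 without 1 array, and by the 3-group contrast -0.0622, -0.0141 and -0.0614 without CTRL replicate 1, gamma_ON replicate 1 and gamma_OFF replicate 1, against 0.0082. The cause of these shifts was not tested. The number of arrays, 2 of them controls, limits every call.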

Other observations

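Array rows without a gene name were fitted together with the named rows. Of 37519 unnamed rows, 6 were called (0.016%), all 6 lower on the H2A.X side. Of the 16098 named rows, 2 were called in this fit. Most of the 23 gene calls were thus lost when all 53617 rows were tested together. The largest fall over all 53617 rows was in an unnamed row, probe set 16994735, which was at 8.80 and 9.26 in CTRL, 3.63 and 4.07 in gamma_ON, and 4.21 and 4.19 in gamma_OFF. All 4 H2A.X arrays lay more than 4 units below CTRL, and the difference was -5.00 (SE 0.21, limma adjusted p = 0.000656). Probe set 17045255 was at 9.07 and 9.67 in CTRL, 5.99 and 5.84 in gamma_ON, and 5.22 and 5.75 in gamma_OFF, a difference of -3.67 (SE 0.25, adjusted p = 0.00931). The other 4 differed by -1.74 to -3.25, also with no overlap between the groups. By the 3-group contrast 460 of the 37519 unnamed rows were called, 36 higher and 424 lower.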
